A study of Bos taurus with 8 samples.

Results

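The neural and endocrine miRNAs bta-miR-375, bta-miR-138, bta-miR-218, bta-miR-9-5p and bta-miR-7 (bta for Bos taurus, left out below) were followed through the plasma and blood cell fractions of 4 cows. They were taken by name from the raw read table, which holds 704 miRNA names, and all 5 names were found. Each of the cows, numbered 44 to 47, gave 1 plasma and 1 blood cell library, so the 8 libraries form 4 pairs. The donors were untreated, cycling Holstein-Friesian cross heifers that were not pregnant and had no genetic modification. The animals sampled were 20 to 25 months old. Plasma was spun and passed through 0.2 μm filters, and the blood cell pellet held red blood cells together with the buffy coat. The blood cell fraction is therefore a mixture, in which fewer cells of a type cannot be told apart from less miRNA per cell.

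miRNAs are short RNAs that guide Argonaute proteins to target mRNAs and lower their translation or stability. miR-375 is best known from pancreatic islets, where in the mouse it restrains insulin secretion and is needed for normal islet cell mass, and it is also made in the pituitary and in enteroendocrine cells of the gut. miR-7 is likewise abundant in islets, pituitary and brain, and in the mouse brain it is bound by the circular RNA Cdr1as. miR-9 acts in neural progenitors and neurons, miR-138 limits the growth of dendritic spines in rat neurons, and miR-218 marks motor neurons in the mouse. None of the 5 is counted among the major miRNAs of red blood cells.

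The authors' table gives 1 location per name on the bovine build bosTau4. It places miR-375 at chr2:111347586-111347608 on the minus strand, miR-138 at chr22:16421466-16421488 on the plus strand, and miR-218 at chr20:2621243-2621264 on the plus strand. It places miR-9-5p at chr7:89436783-89436804 and miR-7 at chr7:17936733-17936756, both on the minus strand. These spans are 22 to 24 nucleotides long, so levels of different miRNAs are compared below as reads per name, with no correction for length. The lengths of the reads themselves were not examined. In RefSeq's annotation of ARS-UCD2.0, another bovine build that was used only for names and neighbours, miR-375 has 1 locus, which lies near FEV and CRYBA2 and within no other gene. miR-138, miR-218, miR-9 and miR-7 have 2 loci each in that annotation, and reads of a mature miRNA do not tell its loci apart. The loci of miR-218 lie within SLIT2 and SLIT3, genes of secreted axon guidance proteins, and 1 of the miR-7 loci lies within HNRNPK.

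Levels are given as RPMM, the authors' unit, in which reads are scaled to 1000000 mapped bovine miRNA reads per library. By this measure the plasma libraries held 1452768 to 4307988 reads and the blood cell libraries 11179109 to 14483371, so 3 reads are worth 0.696 to 2.07 RPMM in plasma and 0.207 to 0.268 in blood cells. The labels of the fractions were matched by their markers. The red blood cell miRNAs miR-451, miR-486 and miR-144 summed to 488193 to 561169 RPMM in blood cells against 89165 to 180387 in plasma, and the 6 epithelial miRNAs of the miR-200 family and miR-205 summed to 3284 to 8750 RPMM in plasma against 5.86 to 7.42 in blood cells. The read counts of the fractions were tested by edgeR's quasi-likelihood method, blocked by cow and scaled by TMM (a trimmed mean over the names). Names under 0.05 after Benjamini-Hochberg adjustment are referred to as called. The test was run on the 209 names that reached 25 RPMM in 3 or more libraries of a fraction, and on all 704 names.

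miR-375, miR-138 and miR-218 were higher in plasma, and miR-9-5p and miR-7 were higher in blood cells. Only miR-375 and miR-138 passed the 25 RPMM filter, and both were called higher in plasma, as were 45.5% of the 209 names, while 39.7% were called higher in blood cells. Over all 704 names, the 3 higher in plasma stand against 25.3% of names called in that direction, and the 2 higher in blood cells against 21.7%. In RPMM, the fractions did not overlap for any of the 5. All plasma libraries were above all blood cell libraries for miR-375, miR-138 and miR-218, as for 35.7% of all names, and all were below for miR-9-5p and miR-7, as for 11.8%.

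**Figure D1:**
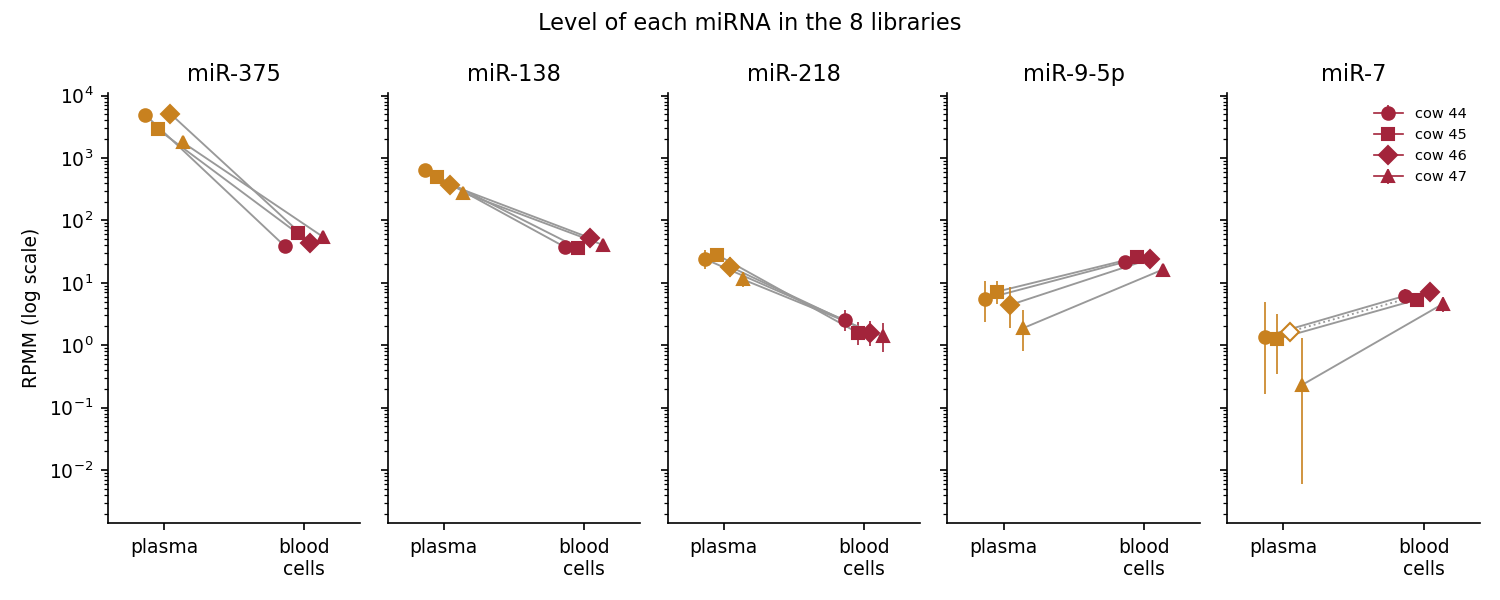
RPMM (log scale) of each miRNA in the plasma and blood cells of the 4 cows, with a line joining the libraries of a cow and bars giving the 95% exact Poisson interval of the read count. miR-375, miR-138 and miR-218 fall from plasma to blood cells in 4 of 4 cows and miR-9-5p and miR-7 climb, and the open symbol marks the 0 reads of miR-7 in the plasma of cow 46, drawn at the level of 3 reads.

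miR-375 was the most abundant of the 5 in plasma. Its plasma level was 4970 RPMM in cow 44, 2907 in cow 45, 5152 in cow 46 and 1778 in cow 47, from 7220 to 9374 reads per library. In blood cells it was 38.2, 61.7, 44.1 and 54.4 RPMM in the same order of cows, from 427 to 894 reads. Every plasma library was thus far above every blood cell library, and the cows with the most miR-375 in plasma, 44 and 46, had the least in blood cells. Within a cow, the plasma level was 130, 47.1, 117 and 32.7 times that of the blood cells. The log2 fold change was 4.45 ± 0.37 (SE), with an edgeR adjusted p of 4.71e-05 and higher levels in plasma in 4 of 4 cows, which ranked 36 from the top among the 209 names. Over all 704 names it was 4.52 ± 0.31 (SE), with an edgeR adjusted p of 1.32e-08. By read count, miR-375 ranked between 32 and 48 in the plasma libraries and at 112 or below in the blood cell libraries.

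miR-138 also had a higher RPMM in plasma, by a smaller margin. It had 631 RPMM in the plasma of cow 44, 501 in cow 45, 370 in cow 46 and 279 in cow 47, from 673 to 1596 reads. In blood cells it had 37.3, 36.7, 52.1 and 40.5 RPMM, from 417 to 625 reads. The plasma of cow 47, the lowest, was still well above the highest blood cell library, that of cow 46. The log2 fold change was 1.70 ± 0.28 (SE), with an edgeR adjusted p of 0.00136 and higher levels in plasma in 4 of 4 cows, rank 71 from the top among the 209 names. The mean RPMM in plasma was 10.7 times that in blood cells, more than this log2 fold change gives. TMM multiplies the library totals of plasma by 1.43 to 1.997 and those of blood cells by 0.519 to 0.602. Together, miR-486 and miR-451 took 47.9% to 55.0% of the blood cell reads against 8.86% to 18.0% of the plasma reads.

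miR-218 was low in both fractions and lay higher in plasma. It had 35, 89, 33 and 49 reads in the plasma of cows 44, 45, 46 and 47, or 24.1, 28.0, 18.1 and 11.4 RPMM. In blood cells it had 28, 23, 19 and 16 reads, or 2.50, 1.59, 1.58 and 1.38 RPMM. The plasma libraries gave more reads than the blood cell libraries although they were shallower, and only cow 45 reached 25 RPMM. Summed over the cows, 206 plasma reads against 86 blood cell reads give a ratio of pooled RPMM of 10.97 (95% exact binomial interval 8.49 to 14.3). Over all 704 names the log2 fold change was 1.90 ± 0.31 (SE), with an edgeR adjusted p of 8.57e-05, higher in plasma in 4 of 4 cows. The human homologue name hsa-miR-218-2-3p, the other arm of a miR-218 hairpin, had 2 plasma reads and 3 blood cell reads, too few for a comparison.

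miR-9-5p had the opposite direction. Its blood cell libraries held 241, 372, 289 and 189 reads in cows 44, 45, 46 and 47, or 21.6, 25.7, 24.1 and 16.3 RPMM. Its plasma libraries held 8, 23, 8 and 8 reads, or 5.51, 7.23, 4.40 and 1.86 RPMM. The highest plasma library, that of cow 45, stayed below the lowest blood cell library, that of cow 47. The ratio of pooled RPMM was 5.07 in favour of blood cells (95% exact binomial interval 3.79 to 6.94), from 1091 and 47 reads. Over all 704 names the log2 fold change was -3.89 ± 0.29 (SE), with an edgeR adjusted p of 2.60e-08, lower in plasma in 4 of 4 cows. The other arm, miR-9-3p, had 0 to 2 reads in plasma libraries and 1 to 6 in blood cell libraries and was not called, at -0.78 ± 0.92 (SE), with an edgeR adjusted p of 0.506. The 5p arm took 98.6% of the miR-9 reads in blood cells (95% exact binomial interval 97.8 to 99.2) and 90.4% in plasma (79.0 to 96.8), the latter from 52 reads in all. The authors' location of miR-9-3p is on chromosome 21 and spans 17 nucleotides, against 22 on chromosome 7 for miR-9-5p. These shares thus compare reads of 2 names and not the arms of 1 locus.

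miR-7 was the rarest of the 5 in plasma. Its plasma libraries held 2, 4, 0 and 1 reads in cows 44, 45, 46 and 47, which is 1.38, 1.26, 0 and 0.232 RPMM. The 0 reads in cow 46 allow up to 2.03 RPMM by the 95% exact Poisson interval, where 3 reads would be 1.65. Its blood cell libraries held 69, 78, 85 and 53 reads, or 6.17, 5.39, 7.08 and 4.57 RPMM. The plasma libraries are shallower, but at the read total of the shallowest library the blood cell levels would still give 6.63 to 10.3 reads, against the 2 reads found in that plasma library. The ratio of pooled RPMM was 8.89 in favour of blood cells (95% exact binomial interval 4.26 to 22.3). Written as plasma over blood cells it was 0.112, and 0.0665 without cow 45, whose plasma held 4 of the 7 reads. Over all 704 names the log2 fold change was -4.57 ± 0.49 (SE), with an edgeR adjusted p of 1.30e-06, lower in plasma in 4 of 4 cows, rank 22 from the bottom. These intervals and floors leave out all but counting error, as reads copied by PCR are not independent.

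**Figure D2:**
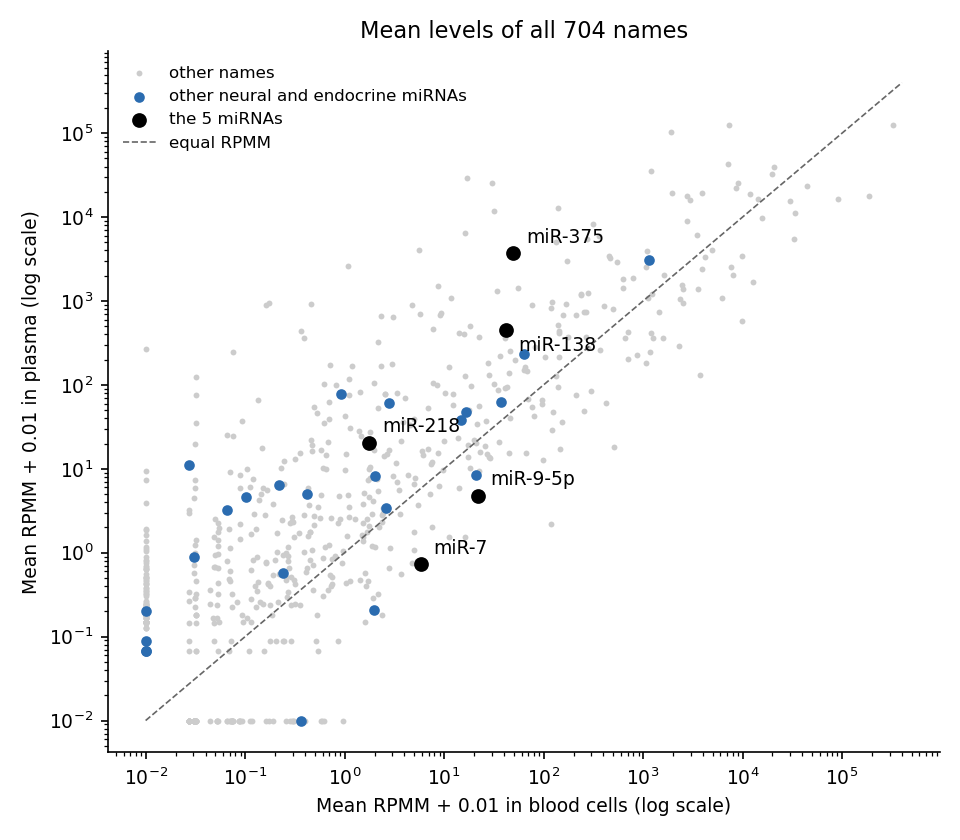
Mean RPMM of each of the 704 names in plasma (vertical) and blood cells (horizontal), both on log scales with 0.01 RPMM added, with the 5 miRNAs in black, other neural and endocrine miRNAs in blue and a dashed line at equal RPMM. miR-375, miR-138 and miR-218 lie above the line and miR-9-5p and miR-7 below it.

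The order of the 5 differed between the fractions. In plasma the means ran from miR-375, with 3702 ± 1638 RPMM (SD, n = 4), through miR-138, with 445 ± 154, and miR-218, with 20.4 ± 7.24, to miR-9-5p, with 4.75 ± 2.25, and miR-7, with 0.716 ± 0.701. No library of a plasma neighbour overlapped the next in this order. In blood cells miR-375, at 49.6 ± 10.5 RPMM (SD, n = 4), and miR-138, at 41.6 ± 7.15, overlapped, and their order was not the same in every cow. They were followed by miR-9-5p, at 21.9 ± 4.11, by miR-7, at 5.80 ± 1.08, and by miR-218, at 1.76 ± 0.504, with no overlap between these neighbours. miR-218 thus stood between miR-138 and miR-9-5p in plasma and last in blood cells.

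Ratios within a library do not depend on the scaling between libraries, and they differed between the fractions in the same direction. Plasma held 7.87, 5.79, 13.9 and 6.37 reads of miR-375 per read of miR-138 in cows 44, 45, 46 and 47, with 0.5 reads added to each count, and blood cells held 1.02, 1.68, 0.848 and 1.34. The log2 ratio was higher in plasma by 2.75 ± 0.98 (SD, n = 4 cows). miR-375 over miR-7 differed by 9.17 ± 1.71 on the log2 scale and miR-138 over miR-7 by 6.42 ± 0.81, both with larger ratios in plasma in 4 of 4 cows. As miR-7 had 0 to 4 reads in the plasma libraries, the sizes of both differences depend on the added reads. With 1 read added they were 8.72 and 5.97. Each of these 3 comparisons gave p = 0.125 in an exact two-sided permutation test on the pairs, before and after Benjamini-Hochberg adjustment, the smallest p that 4 pairs allow. Of all reads of the 5 miRNAs in a library, miR-375 took 84.4% to 92.9% in the plasma libraries, but 34.2% to 47.1% in those of blood cells. miR-9-5p and miR-7 took 13.9% to 20.4% and 3.90% to 5.84% in blood cells and at most 0.210% and 0.0365% in plasma.

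**Figure D3:**
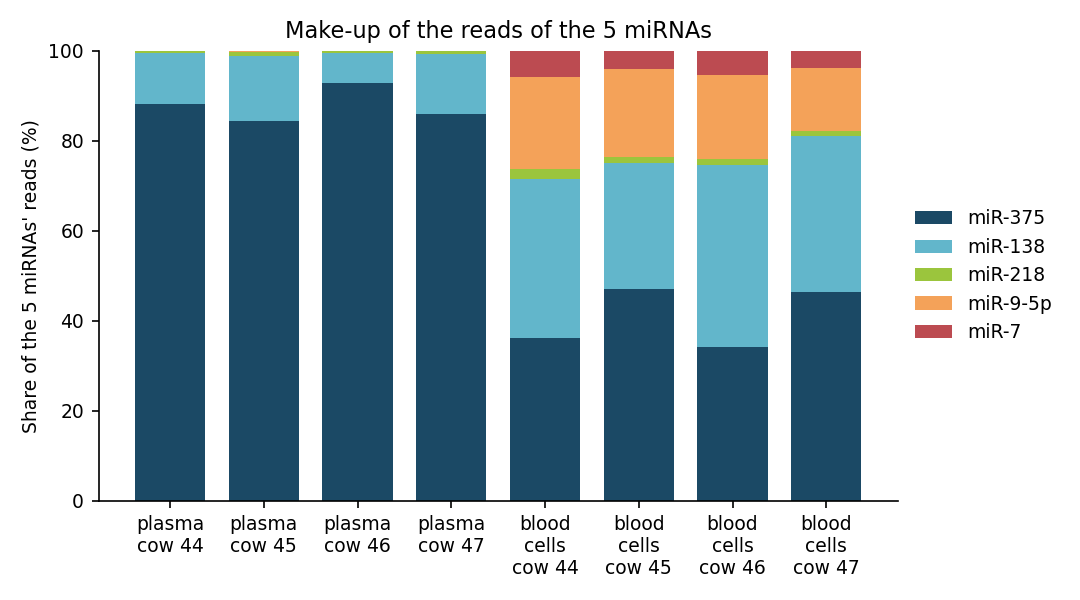
Share (%) of the reads of the 5 miRNAs that each one took in the 8 libraries. miR-375 fills most of every plasma bar, while in blood cells miR-138 and miR-9-5p take visible parts beside it.

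In RPMM, the plasma levels spread further between cows than the blood cell levels did, and cow 47 was lowest for 4 of the 5. The highest plasma level was 2.90 times the lowest for miR-375, 2.26 times for miR-138, 2.46 times for miR-218 and 3.89 times for miR-9-5p. The last of these rests on 8 to 23 reads per plasma library. In blood cells the corresponding ratios were 1.62, 1.42, 1.82 and 1.58. Plasma of cow 47 had the fewest RPMM of miR-375, miR-138, miR-218 and miR-9-5p, while for miR-7 it was cow 46, with 0 reads. The same plasma library had the highest summed level of the 3 red blood cell miRNAs, 180387 RPMM against 89165 to 161148 in the others, and the lowest of the 6 epithelial miRNAs, 3284 against 5960 to 8750. The part of red blood cell and epithelial miRNAs in the differences between cows was not tested. The plasma level of liver miR-122 in cow 47 was 814 RPMM, against 36.8 to 75.03 in the others. After division by the TMM factors of the test on all names, miR-375 in plasma was 2588, 1609, 2611 and 1335 scaled RPMM in cows 44 to 47, so cow 47 stayed lowest for it, whereas for miR-138 the lowest was then cow 46, at 187 against 210 in cow 47. For miR-218 the highest over the lowest scaled level was then smaller in plasma (8.54 to 15.5) than in blood cells (2.23 to 5.03). miR-375, miR-138 and miR-9-5p kept the wider spread in plasma.

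Some markers of other sources moved with the fraction too. The 3 red blood cell miRNAs were called higher in blood cells. Among 5 leukocyte miRNAs, miR-142-5p and miR-142-3p were called higher in blood cells and miR-150, miR-155 and miR-146a were not called, with a summed level of 30871 to 65187 RPMM in plasma and 23967 to 29326 in blood cells. The direction of miR-142-5p turned with the scaling, as its RPMM were higher in plasma, at 25738 to 49183 against 18894 to 24203 in blood cells, and its log2 fold change was -0.71 with TMM and 0.89 with library totals alone. With library totals alone miR-150, miR-155 and miR-146a were also called higher in plasma, at 1.58, 1.76 and 1.12, while miR-142-3p stayed higher in blood cells, at -0.84. The 6 epithelial miRNAs, the 3 intestinal miRNAs miR-192, miR-194 and miR-215, and miR-122 were called higher in plasma. miR-429 was at 0 reads in the blood cell libraries and miR-205 at 0 to 0.276 RPMM. The part of these sources in the fold changes of the 5 miRNAs was not tested.

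The names whose pattern over the 8 libraries came nearest to each of the 5 were found by the Euclidean distance of centred log2(RPMM + 1), among 341 names with over 10 reads in at least 3 libraries of a fraction. For miR-375 they were miR-369-3p, miR-214 and miR-130a, at distances of 0.88, 1.13 and 1.14. miR-138 was nearest to miR-424-5p (0.59), miR-140 (0.65) and miR-411c-5p (0.68). For miR-218 they were miR-660 (0.54), miR-744 (0.64) and miR-21-3p (0.67). miR-9-5p lay nearest to miR-20a (0.50), miR-17-5p (0.79) and miR-2285g (0.82), and miR-7 to miR-15b (0.95), miR-17-3p (0.998) and miR-16a (1.01). The neighbours of miR-9-5p and miR-7 were all called higher in blood cells and those of the other 3 all higher in plasma, which the distance itself largely sets. The added 1 RPMM shrinks differences of names as low as miR-7 in plasma, and of neighbours under 1 RPMM in blood cells. Over all names, miR-214, at 0 to 0.0895 RPMM there, had a log2 fold change of 9.56 and miR-369-3p 5.76, against 4.52 for miR-375. miR-424-5p (3.45) and miR-411c-5p (3.82) were also under 1 RPMM there, against 1.78 for miR-138. miR-130a (4.68) and miR-140 (1.71) were above 1 RPMM in blood cells.

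**Figure D4:**
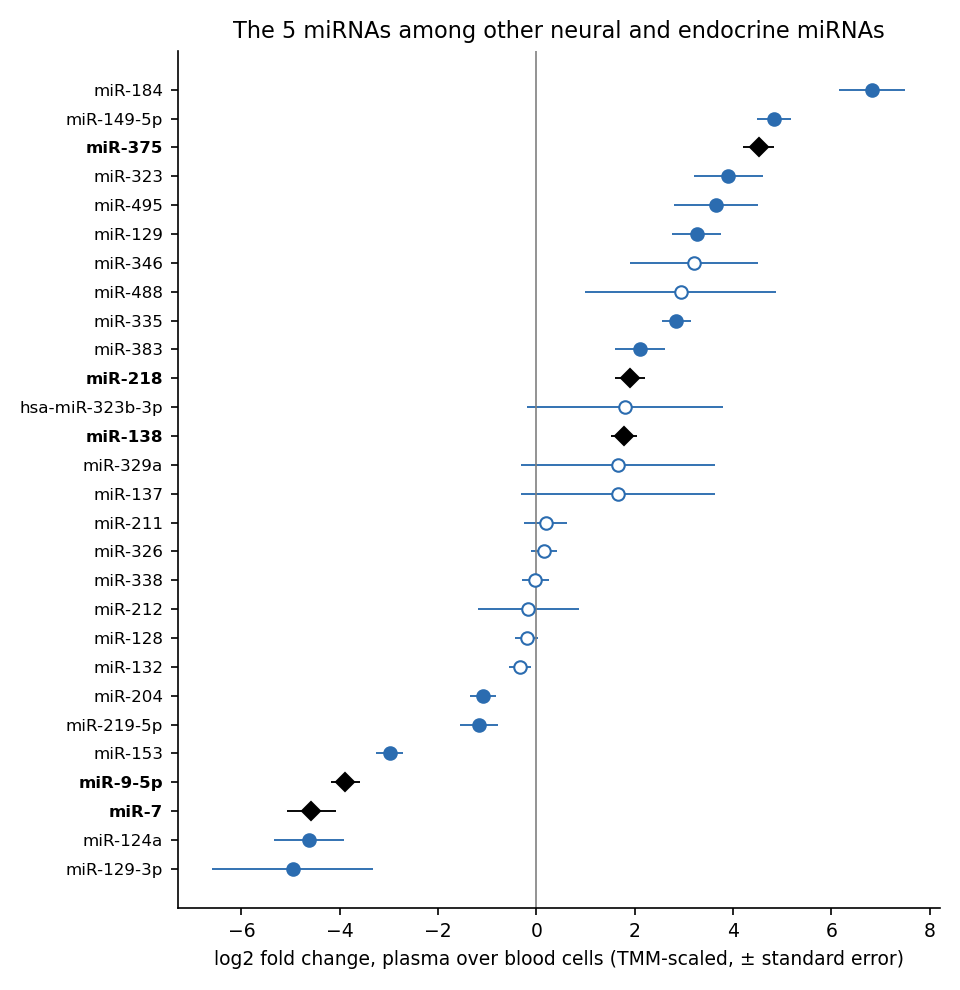
TMM-scaled log2 fold change (plasma against blood cells), with its standard error, for the 5 miRNAs (black diamonds, bold names) and 23 names of other neural and endocrine miRNAs (blue circles), where open symbols were not called. The 5 fall on both sides of 0, as do the called names of the list, and values of names with 0 to 3 reads in a fraction depend on the prior count of the fit.

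With TMM scaling, other neural and endocrine miRNAs were likewise found on both sides. Of 23 names on a list of such miRNAs, 7 were called higher in plasma (30.4%), 5 higher in blood cells (21.7%) and 11 were not called, close to the shares over all 704 names. In RPMM, 20 of the 23 had a higher mean in plasma. For 11 list names all plasma libraries were above all blood cell libraries, beside 35.7% of all 704 names. For 2 all were below, beside 11.8%. Although called higher in blood cells, miR-204 and miR-219-5p had more RPMM in plasma in 3 of 4 cows. The median log2 fold change was 1.66 over the list and 0.52 over all names. With names at 0 reads in a fraction set to the bound that 3 reads give, the medians were -0.02 and 0.09. Among the 18 list names with reads in both fractions the median was 0.17, against 0.08 for 507 such names in all. miR-128, a neuronal miRNA also made in blood cells, was by far the most abundant of the list, with a plasma level of 3076 ± 980 RPMM and a blood cell level of 1135 ± 164 (SD, n = 4), and was not called, at -0.20 ± 0.23 (SE), with an edgeR adjusted p of 0.506.

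The called names with the largest fitted changes were miR-184 and miR-149-5p in plasma and miR-129-3p and miR-124 in blood cells. miR-149-5p had 60.8 to 101 RPMM in plasma and 0.345 to 1.42 in blood cells, a log2 fold change of 4.84 ± 0.34 (SE), with an edgeR adjusted p of 1.56e-08, higher in plasma in 4 of 4 cows. miR-184, an miRNA of eye and brain, had 15 to 68 reads in plasma libraries and 1 read in blood cells, from cow 45, a ratio of pooled RPMM of 568 (95% exact binomial interval 100.03 to 22602). Without cow 45 it was at least 161-fold higher in plasma. The ratio was 327 (56.3 to 13135) without cow 47, whose plasma gave 68 of its reads. miR-124, listed as 1 name for miR-124a and miR-124b and the most characteristic miRNA of neurons, had 13 to 37 reads in blood cell libraries and 2 in plasma altogether. Its pooled RPMM was 10.8 times higher in blood cells (95% exact binomial interval 2.92 to 90.5). Leaving out cow 46 gave 17.3 (3.00 to 692), and leaving out cow 45 gave 6.75 (1.79 to 57.0). miR-129-3p had 3 to 7 reads in blood cell libraries and 0 in plasma. The 95% exact binomial interval of its pooled ratio, blood cells over plasma, began at 0.960 and so included equal levels. Counting its plasma reads as 3 in all gave a ratio of 1.31, or 0.799 without cow 45 and 0.743 without cow 47. Its call was lost without cow 44, 45 or 47 (edgeR adjusted p of 0.0598, 0.0938 and 0.0844). By pooled reads, a difference was thus not detectable at this depth, even with all 4 cows.

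The direction and the call of the 5 miRNAs held under every setting tried. In the test on all names, the log2 fold change ranged from 4.33 to 6.12 for miR-375, from 1.60 to 3.37 for miR-138 and from 1.66 to 3.50 for miR-218 over 12 alternatives. It ranged from -4.11 to -2.31 for miR-9-5p and from -5.20 to -3.05 for miR-7. The highest adjusted p among these alternatives was 0.00131, for miR-218. The values nearest to blood cells for the plasma miRNAs came from leaving out a cow or the human homologue names, whereas scaling by library totals alone moved all 5 towards plasma. With that scaling the median over all names moved from 0.52 to 2.02 on the log2 scale, and relative to it miR-9-5p, at -2.31, and miR-7, at -3.05, stayed in blood cells.

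**Figure D5:**
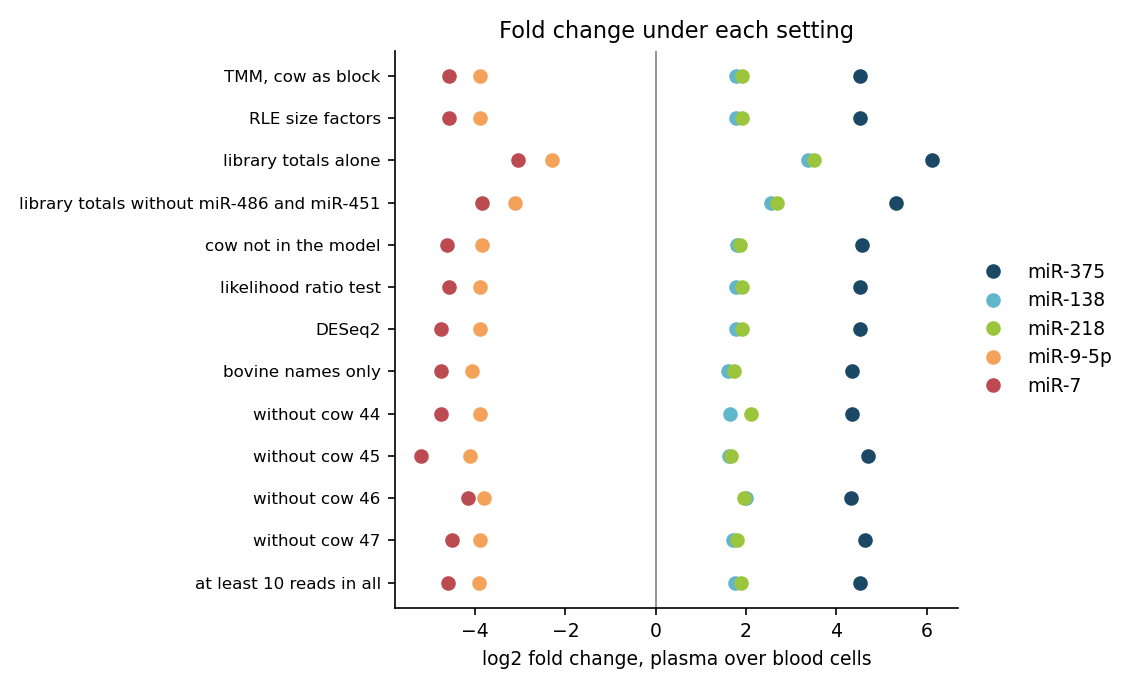
Log2 fold change (plasma against blood cells) of the 5 miRNAs in the test on all names, for the setting used and 12 alternatives. No point crosses 0, and scaling by library totals alone moves all 5 to the right.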

How the data were processed

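The authors prepared TruSeq small RNA libraries from 5 μL of RNA extract each and sequenced 36-base single-end reads. They removed reads without adaptor, with undetermined bases or under 15 nucleotides, and mapped the rest with sRNAbench (Bowtie 0.12.9 in the submitters' processing notes) to bosTau4 and miRBase 21 with 1 mismatch. They deposited raw read counts per miRNA name and normalised signal values (RPMM), scaled separately for bovine names and for human homologues. Here, every name was scaled by its library's bovine total.

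Counts were tested with edgeR 4.0.16 (limma 3.58.1, R 4.3.3) with TMM scaling and the cow as a block. The study names edgeR's paired mode and the 25 RPMM filter. The test on all names was added because miR-218, miR-9-5p and miR-7 fall under that filter. Standard errors were derived from the fold change and its F statistic (|log2 FC|/√F). The pairing comes from the animals. As a check, deviations from the fraction mean correlated across the 209 names at 0.0508 to 0.234 within a cow and -0.174 to 0.106 between cows. These ranges overlap. Plasma of cows 45 and 46 correlated more with blood cells of another cow than with their own, so the check cannot establish the pairing.

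The 5 miRNAs, the list of 23 names and the markers were chosen with earlier results of these data known. The miRNAs named are the 5, other arms of the same number, 3 nearest patterns each, the markers, and the 2 called list names with the largest change in each direction. miR-128, miR-204 and miR-219-5p were named after their values were seen. Alternatives were RLE factors, library totals with and without miR-486 and miR-451, no block, the likelihood ratio test, DESeq2 1.42.0, other filters, bovine names only, 1 read added to ratios, and leaving out each cow with the tested names kept.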

Additional observations from a re-analysis of the deposited data

How the results depend on the processing

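No fold change of the 5 miRNAs changed its call or direction under the alternatives run. Leaving out a cow gave log2 fold changes of 4.16 to 4.78 for miR-375 and 1.47 to 1.93 for miR-138 in the test on 209 names. The paired fit, with the cow as replicate block, called 178 of 209 and 331 of 704 names, and the fit without the block 174 and 352, with miR-375 at 4.49 and 4.58 and miR-7 at -4.62. Library totals alone called 297 of 704 names as plasma miRNAs and 75 as blood cell miRNAs, against 25.3% and 21.7% of names with TMM. Among the 209 names the split was 140 to 52, against 95 to 83. On the neural and endocrine list, library totals raised the plasma calls from 7 to 13 and lowered the blood cell calls from 5 to 2. Of the list, 6 names changed sign, among them miR-128, which was then called higher in plasma. miR-204 and miR-219-5p, which had been called higher in blood cells, also changed sign and were then not called. Leaving out a cow gave 6 to 7 list names called for plasma, the lowest without cow 47, and 3 to 4 for blood cells, the lowest without cow 44. Totals without miR-486 and miR-451 moved the ratio of pooled RPMM of plasma over blood cells to 6.35 for miR-218, 0.114 for miR-9-5p and 0.0651 for miR-7, since most of the reads removed are from blood cells. With a filter at 10 RPMM, miR-218 and miR-9-5p were tested among 253 names and were called at 1.82 and -3.98. Ratios of pooled RPMM for miR-218 were 8.52 to 13.1 when a cow was left out, those for miR-9-5p 0.153 to 0.252, and those for miR-7 0.0665 to 0.151, the lowest of miR-7 without cow 45, which held 4 of its 7 plasma reads. Depth limits miR-7 in plasma, where single reads set the level of a cow.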
